A study of Mus musculus with 31 samples.

Results

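The genes of the cytosolic ribosomal proteins were examined for open chromatin at their promoters in NIH-3T3, an immortal fibroblast line derived from mouse embryos. Members were the protein-coding genes of the mm10 GENCODE annotation whose symbol is Rpl or Rps followed by a number and at most 1 letter, with Rplp0, Rplp1, Rplp2, Rpsa and Fau. This gave 81 of 21938 protein-coding genes, of which 49 encode proteins of the large (60S) subunit and 32 encode proteins of the small (40S) subunit. They lie on 20 chromosomes, with 14 of them on chromosome 7.

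The series holds 31 ATAC-seq libraries, in which the Tn5 transposase cuts accessible DNA and inserts sequencing adapters. The peak list of 1 library, that of the parental cells, was used, and the other 30, from cells with dox-inducible overexpression of 13 transcription factors or from control cells that express only the rtTA3G activator, were not analysed here. Per the labels, 50000 parental cells were treated with 0.5 µM Tn5 and amplified for 12 PCR cycles, with no dox entered for this sample. The methods, however, state a dox treatment (500 ng/ml, 48 h) without excepting the parental line, so whether these cells received it is uncertain. There was no replicate, so values were compared between genes of this library and no test between samples was made. As a check of the cell label, 7 of 7 fibroblast marker genes had a peak within 1 kb of an annotated start. Of 5 markers of other cell types, 1, Pecam1, had one, and the share over all protein-coding genes was 53.7%. The strongest peak lay 5400 bp from the principal start in Thy1, 1164 bp in Pecam1 and 528 bp in Col1a1.

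The ribosome translates mRNA into protein, with the small subunit decoding the message and the large subunit forming the peptide bond. Most of its protein genes are expressed in all growing cells, a few paralogs are tissue-restricted, and the genes are scattered over the genome. Their mRNAs classically begin with a C followed by a run of pyrimidines, the 5' terminal oligopyrimidine or TOP motif, through which their translation responds to mTOR signalling. Several of the genes also carry small nucleolar RNAs in their introns, and the genome holds many processed pseudogene copies of their mRNAs.

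Such a start was read at the principal annotated transcript in 10 of 81 members (12.3%), beside 2.26% of all protein-coding genes. The sequences of 8 of them are shown because they carry the feature for which this gene family is known. Each runs from 20 bases before the start to 20 bases from it on the coding strand of mm10, with capitals for the unbroken pyrimidine run that begins at the start.
Rps24 (chr14:24490698-24490737, plus strand): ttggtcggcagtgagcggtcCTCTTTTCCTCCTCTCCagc
Rps2 (chr17:24720090-24720129, plus strand): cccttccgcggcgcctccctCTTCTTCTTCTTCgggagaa
Rpl30 (chr15:34443203-34443242, minus strand): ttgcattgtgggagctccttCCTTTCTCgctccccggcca
Rpl4 (chr9:64173355-64173394, plus strand): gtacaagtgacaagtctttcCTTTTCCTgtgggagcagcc
Rpl37 (chr15:5116625-5116664, plus strand): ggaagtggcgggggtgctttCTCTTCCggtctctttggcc
Rps21 (chr2:180257357-180257396, plus strand): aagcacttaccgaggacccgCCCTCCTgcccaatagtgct
Rpl37a (chr1:72711270-72711309, plus strand): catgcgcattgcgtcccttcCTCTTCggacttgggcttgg
Rpl36 (chr17:56613396-56613435, plus strand): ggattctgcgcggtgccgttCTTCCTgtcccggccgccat
Among those shown, the run was 17 bases long in Rps24, 13 in Rps2 and 6 to 8 in the other 6.

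The count depends on which annotated base is taken as the start. A C followed by 4 pyrimidines lay within 10 bases of the principal start in 41 members (50.6%), beside 30.6% of all protein-coding genes. Among the 61 members with a RefSeq promoter entry, 14 (23.0%) had such a start at a RefSeq position, beside 2.71% of all protein-coding genes with an entry. Together 23 members had one by either annotation, and only Rps21 had one by both. The base at the principal annotated start was C in 24 members (29.6%), beside 17.4% of all protein-coding genes.

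Promoters of the family were open almost without exception. A peak lay within 1 kb of an annotated start in 79 of 81 members (97.5%, exact binomial 95% interval 91.4 to 99.7%), beside 53.7% of all protein-coding genes and 85.3% of the protein-coding genes with a CpG-rich promoter. A promoter was called CpG-rich when the 250 bases before and 50 bases after the start held at least 55% G and C and an observed to expected CpG ratio of at least 0.75. Of the members, 38 (46.9%) had such a promoter, beside 28.9% of all protein-coding genes, and all 38 were open. Of the 43 members without one, 41 were open. The interval covers counting of genes only.

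The closed members were Rpl3l and Rpl10l. Rpl3l, a striated muscle counterpart of Rpl3, starts at chr17:24727820 on the plus strand and had its nearest peak 3251 bp away. Rpl10l, a testis counterpart of Rpl10 that arose as a retrocopy, starts at chr12:66284401 on the minus strand and had its nearest peak 1844 bp away. Rpl3 and Rpl10, the widely expressed genes of the pairs, were open, and none of these 4 genes had a CpG-rich promoter. Every one of the 79 open members had a peak that covered an annotated start, so that no member lay close to the 1 kb limit.

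How strongly a promoter was open was read from its strongest peak, as the number of fragments over the summit. This pileup was solved from the deposited fold enrichment and p-value and was a whole number within 0.02 for 63454 of 63456 peaks. Members had a median of 62 fragments (quartiles 45 and 85, range 17 to 144), beside a median of 64 (quartiles 42 and 90) for all protein-coding genes with a promoter peak and 70 for those with a CpG-rich promoter. Of the 79 open members, 37 (46.8%) lay above the median of all open coding genes. By quartile, 16 fell below the lower one, 47 between them and 16 above the upper one. The members' share of open promoters was thus above that of coding genes in general, while their median level of opening differed from that of open coding genes by 2 fragments.

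Members lay closer to their median than open coding genes did, and so did other housekeeping families. Quartiles were 43.25 and 82.75 around 62 in mitochondrial ribosomal protein genes, and 52 and 79.25 around 60 in proteasome subunit genes. From 31 to 124 fragments, that is from 0.5 to 2 times the members' median, lay 74 of the 79 open members (93.7%). Of all open coding genes, 78.2% lay from 0.5 to 2 times their own median of 64. The ratio of the highest to the lowest member was 8.47. These are pileups at 1 base each, and the exact 95% Poisson interval of Rpl39l, which sits at the median with 62 fragments, runs from 47.5 to 79.5.

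**Figure D1:**
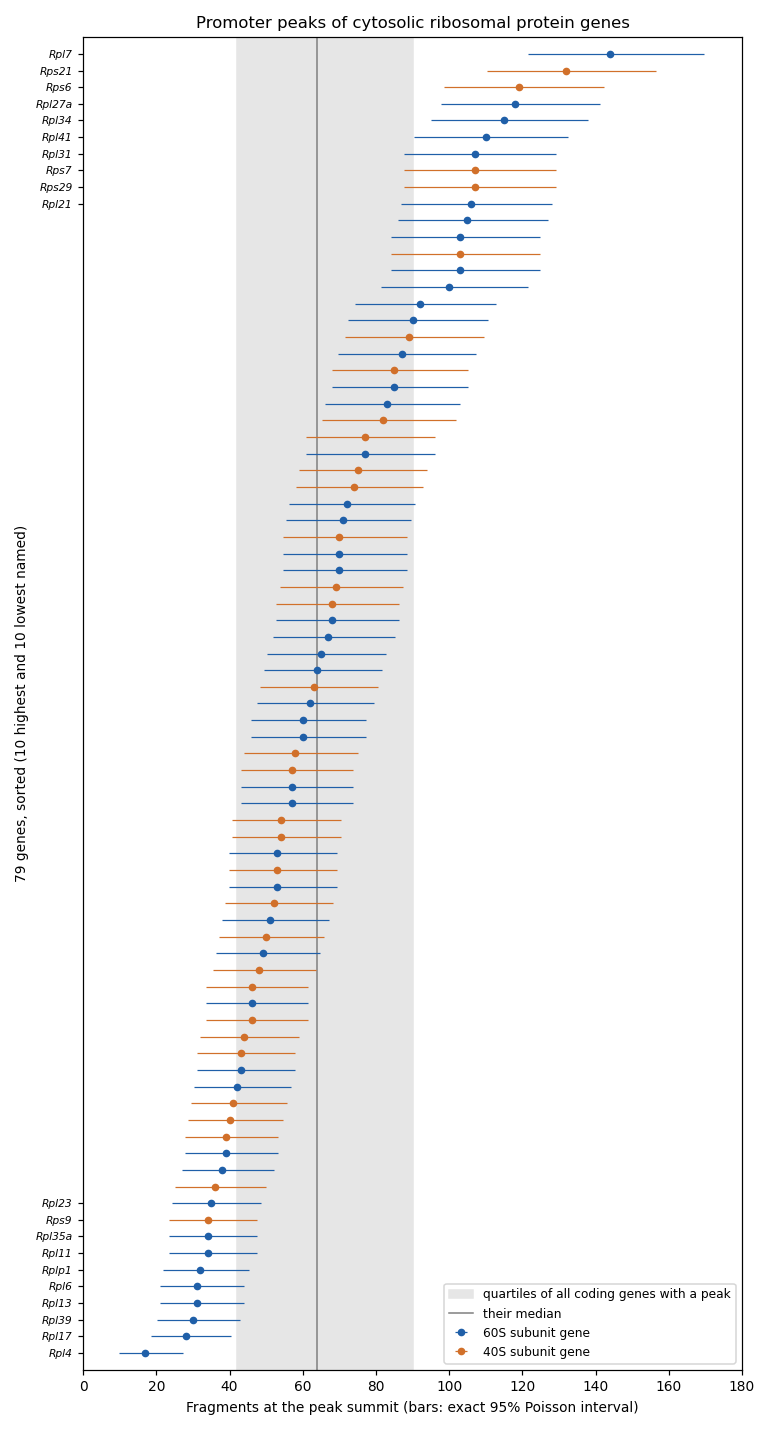
Number of fragments at the summit of the strongest promoter peak (horizontal axis) for each of the 79 open members (vertical axis, sorted, with the 10 highest and 10 lowest named), with exact 95% Poisson intervals, blue for 60S and orange for 40S genes. The grey band spans the quartiles of all coding genes with a promoter peak, 42 and 90, with their median of 64 as a line. Members run from Rpl4 at 17 to Rpl7 at 144, and the 40S genes from 34 to 132.

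The 10 highest members were Rpl7 with 144 fragments, Rps21 with 132, Rps6 with 119, Rpl27a with 118, Rpl34 with 115, Rpl41 with 110, Rpl31, Rps7 and Rps29 with 107 each, and Rpl21 with 106. Of these, Rpl7 (60S) had a peak of 2006 bp (chr1:16104154-16106159) that also came within 1 kb of a start of Rdh10, a retinol dehydrogenase. Its expected pileup of 24.8 was high, and its fold enrichment, the ratio of pileup to the local expected pileup with 1 added to each, was 5.62. The next, Rps21, had a fold of 10.8 over a peak of 1257 bp. Rps6, the 40S protein phosphorylated by the S6 kinases, had a fold of 14.6, and Rpl34 had the highest fold of all members, 14.8. The counting intervals of Rpl7 (121 to 170) and Rps21 (110 to 157) overlap.

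The 10 lowest open members were Rpl4 with 17 fragments, Rpl17 with 28, Rpl39 with 30, Rpl13 and Rpl6 with 31 each, Rplp1 with 32, Rpl11, Rps9 and Rpl35a with 34 each, and Rpl23 with 35. All but Rps9 belong to the 60S subunit. Rpl4, whose product reaches into the exit tunnel, had 2 peaks of 17 fragments each, 1 over its start (317 bp, chr9:64173284-64173600) and 1 upstream (406 bp, chr9:64172754-64173159) near the start of Zwilch, a kinetochore gene. Its Poisson interval of 9.90 to 27.2 lies below the lower quartile of open coding genes.

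Promoter sequences of Rpl34 and Rps6, the members with the highest folds, of Rpl4, with the lowest, and of both closed members are shown to set the ends of the range side by side. Each runs from 100 bases before the start to 20 bases from it on the coding strand of mm10. Capitals mark CCGGAAG, an ETS-type sequence, or its complement CTTCCGG, and CTCGCGAG, the ZBTB33 (Kaiso) type sequence, which reads the same on both strands.
Rpl34 (chr3:130730318-130730437, minus strand): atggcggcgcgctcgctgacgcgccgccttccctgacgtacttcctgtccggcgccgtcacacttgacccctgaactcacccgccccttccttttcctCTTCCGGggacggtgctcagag
Rps6 (chr4:86857393-86857512, minus strand): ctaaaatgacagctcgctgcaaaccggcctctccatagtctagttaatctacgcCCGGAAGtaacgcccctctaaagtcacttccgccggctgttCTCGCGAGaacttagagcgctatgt
Rpl4 (chr9:64173275-64173394, plus strand): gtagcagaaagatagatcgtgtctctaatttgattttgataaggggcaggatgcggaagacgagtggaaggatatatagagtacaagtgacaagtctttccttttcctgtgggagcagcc
Rpl10l (chr12:66284382-66284501, minus strand): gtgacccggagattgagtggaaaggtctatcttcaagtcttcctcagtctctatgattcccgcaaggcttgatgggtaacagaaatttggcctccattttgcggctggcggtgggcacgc
Rpl3l (chr17:24727720-24727839, plus strand): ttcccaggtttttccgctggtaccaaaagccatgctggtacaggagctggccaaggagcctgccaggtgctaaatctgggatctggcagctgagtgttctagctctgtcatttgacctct
These 120 bases held 14 CpG in Rpl34 and 10 in Rps6, against 3 in Rpl4, 5 in Rpl10l and 1 in Rpl3l. Rpl7 and Rps21, the members with the highest pileups, had no CpG-rich promoter, whereas Rps6, Rpl27a and Rpl34, which follow them, had one. Median pileup was 67.5 fragments in the 38 members with a CpG-rich promoter and 57 in the 41 other open members. Over all 79 open members, CpG ratio and pileup were hardly related (Spearman's rho 0.058, beside 0.184 over 11788 open coding genes, across genes of 1 library).

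Fold enrichment gave the same picture of a family in the middle of the range. Its median was 9.08 in members (quartiles 7.32 and 11.5, range 4.73 to 14.8), beside 9.83 for all open coding genes and 10.2 for those with a CpG-rich promoter. The lowest folds were those of Rpl4 (4.73), Rpl36 (4.92), Rpl8 (5.12), Rpl38 (5.13) and Fau (5.13). In Rpl36 and Rpl38 the pileups of 60 and 72 stood over high expected pileups of 11.4 and 13.2, while in Rpl4 the expected pileup was 2.81, the background of the whole list.

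**Figure D2:**
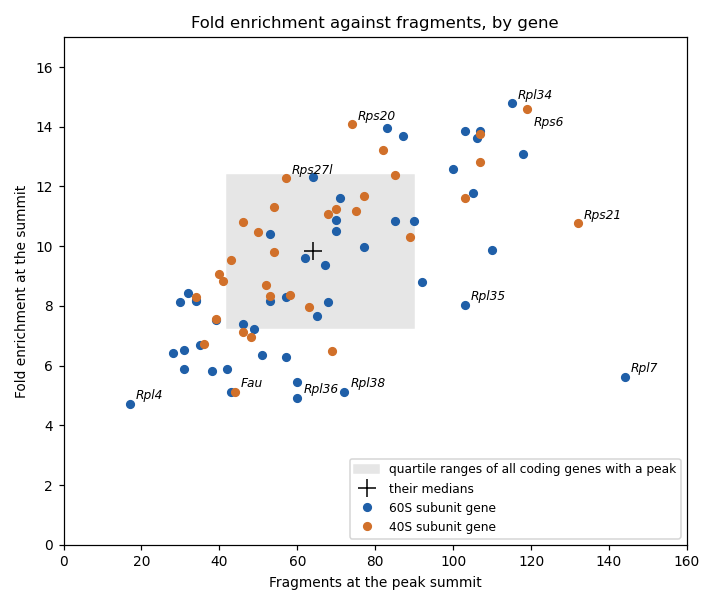
Fold enrichment (vertical axis) against fragments at the summit (horizontal axis) for the 79 open members, blue for 60S and orange for 40S genes, with the quartile ranges of all open coding genes as a grey box and their medians (64 fragments, fold 9.83) as a cross. Rpl7 stands apart at the right with 144 fragments and a fold of 5.62, and Rpl4 at the lower left with 17 fragments and a fold of 4.73.

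Peaks of members were about as wide as those of other genes. The median width was 849 bp (quartiles 585.5 and 953, range 219 to 2006), beside 800 bp (quartiles 572 and 1031) for all open coding genes. Only 11 members lay above the upper quartile. The widest peaks were those of Rpl7 (2006 bp), Rpl10 (1744 bp), Rps29 (1341 bp), Rpl10a (1323 bp) and Rps21 (1257 bp). The narrowest were those of Rpl13 (219 bp), Rpl4 (317 bp), Rpl6 (345 bp), Rpl36 (419 bp) and Rpl18 (448 bp). Width and pileup rose together less closely in members (Spearman's rho 0.376, 79 genes) than over all open coding genes (0.571), a description across genes that share 1 library and its depth.

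Peaks lay over the start itself. In 77 of the 79 open members (97.5%) the strongest peak covered the principal start, beside 77.2% of all open coding genes. The share was 88.9% in open genes with a CpG-rich promoter, 98.7% in mitochondrial ribosomal protein genes and 94.4% in proteasome subunit genes. Among the members, the exceptions were Rpl35 and Rpl18. The peak of Rpl35, 103 fragments high, began 176 bp downstream of the principal start, covered another annotated start and lay within 1 kb of a start of Arpc5l. The strongest peak of Rpl18, with 65 fragments, lay 2571 bp upstream at an alternative start next to Sphk2, a sphingosine kinase gene. A second peak of 646 bp with 43 fragments and a fold of 5.02 covered its principal start.

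Summits were close to the start as well. Their median position was 40 bp upstream (quartiles 88 bp upstream and 31 bp downstream), and 53 of 79 (67.1%) were within 100 bp of it, beside 48.3% of all open coding genes. This share was 79.5% in mitochondrial ribosomal protein genes, 72.7% in genes of other TOP mRNAs and translation factors and 61.1% in proteasome subunit genes. Of the members, 52 (65.8%) had the summit upstream, beside 61.4%. The summit of Rpl10 was the farthest upstream within a peak that covered the start, at -614 bp.

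**Figure D3:**
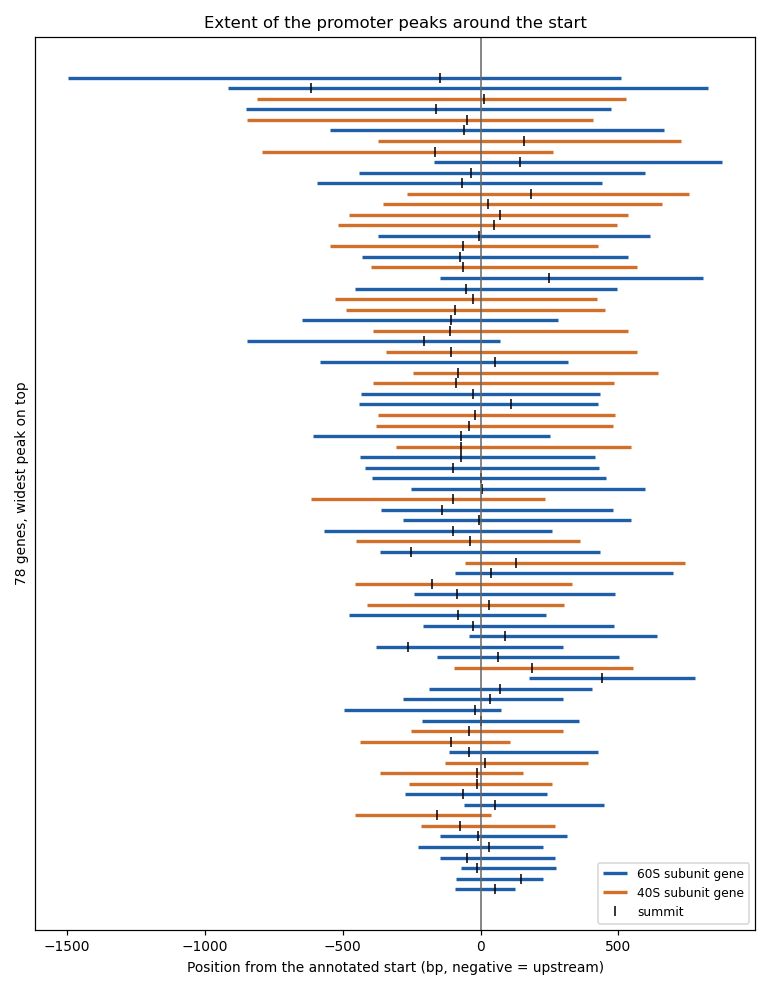
Extent of the strongest promoter peak (lines, blue for 60S and orange for 40S genes) and its summit (black ticks) relative to the annotated principal start (horizontal axis, bp, negative upstream), for 78 open members sorted by width. Rpl18 is left out because its strongest peak lies 2571 bp upstream, and the peak of Rpl35 is the line that begins 176 bp downstream of the start. The median summit of the 79 members is 40 bp upstream.

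Summit position differed between members with and without a pyrimidine start near the annotated base. With a C and 4 pyrimidines within 10 bases of the start, 35 of 40 open members (87.5%) had the summit upstream, at a median of 69 bp before the start. Without one, 17 of 39 (43.6%) did, and the median summit was 12 bp downstream. Over all open coding genes the same division gave 60.4% and 61.9%. Pileup differed little, with medians of 64 and 57. Both the division and the summit position were read from the same annotated base, so a misplaced base would change both. From the 5' end of the gene, the median summit of all open members lay at -8 bp in place of -40 bp. Whether the difference between the groups lies in the chromatin or in the annotated base was not tested.

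A second peak within 1 kb of a start was found in 14 members (17.7%), beside 24.1% of all open coding genes. Of these, 13 had 2 peaks and Rps2 had 3, of 48, 28 and 32 fragments. Others with 2 were Rpl27a, Rpl21, Rpl30, Rps24, Rpl18, Rpl5, Rpsa, Rpl3, Rpl7a, Rps28, Rpl35a and Rpl4.

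By subunit, 47 of 49 genes of 60S proteins and 32 of 32 genes of 40S proteins were open. The median pileup was 64 for the 60S genes (quartiles 42.5 and 88.5) and 57.5 for the 40S genes (quartiles 46 and 78.2). The median fold was 8.20 and 10.4, respectively, and the median width 828 and 870 bp. A CpG-rich promoter was found in 34.7% of the 60S genes and 65.6% of the 40S genes. The ranges of pileup overlapped over nearly their whole length, from 17 to 144 for 60S and from 34 to 132 for 40S.

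Within the large subunit, the 3 genes of the P stalk, which recruits the elongation factors, were unequal, with 67 fragments at Rplp0, 57 at Rplp2 and 32 at Rplp1. The proteins of the 5S particle, which also bind Mdm2, had 53 fragments at Rpl5 and 34 at Rpl11. The 3 genes of proteins lining the exit tunnel had the lowest counts of the open members, with 17 at Rpl4, 28 at Rpl17 and 30 at Rpl39, the last within counting error of Rpl13 and Rpl6 at 31. Those of the exit site, where chaperones and targeting factors dock, ranged widely, with 107 at Rpl31, 103 at Rpl35, 60 at Rpl23a, 51 at Rpl19 and 46 at Rpl26. The tunnel genes were thus all low and the exit site genes were not, and none of these groups was tested.

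Within the small subunit, the genes of the mRNA entry site had nearly equal pileups of 48 at Rps2, 44 at Fau and 43 at Rps3. Rps27a, which is made as a fusion to ubiquitin, had 70 fragments, and Fau is made as a fusion to a ubiquitin-like protein. Of the 9 listed genes whose loss of 1 copy causes Diamond-Blackfan anaemia, 9 were open, beside 79 of all 81 members (97.5%). Among them were 107 fragments at Rps7, 89 at Rps19, 85 at Rps26, 75 at Rps24, 53 at Rpl5, 41 at Rps10 and 34 at both Rpl11 and Rpl35a. The median of the 9 was 53, and 4 of them lay above the median of open coding genes, beside 37 of the 79 open members (46.8%).

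Paralogs were compared because several are known to be tissue-restricted. Rpl39 had 30 fragments and Rpl39l, best known from testis, had 62. Rps27 had 82 and Rps27l, a p53 target, had 57. Outside the member list, Rpl22l1 had 109 fragments beside 83 at Rpl22, Rpl36al had 112 beside 87 at Rpl36a, and Rpl7l1 had 44 beside 144 at Rpl7. The paralog had the higher count in 3 of these 5 pairs, with counting intervals that overlap for Rpl22 and Rpl36a and not for Rpl39, and had no peak in the pairs Rpl3 with Rpl3l and Rpl10 with Rpl10l. Rps4x had 46 fragments, and Rps4l has no protein-coding record in the annotation. The 4 X-linked members, Rpl36a, Rps4x, Rpl10 with 39 fragments and Rpl39, had a median of 42.5. The median was 42 for all open X-linked coding genes and 64 for all open coding genes. The pairs of Rpl39 with Rpl39l and Rpl36a with Rpl36al thus set an X-linked gene beside an autosomal one.

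Some members had a neighbouring gene at their promoter. In 10 members (12.3%, beside 7.96% of all coding genes) another coding gene started on the opposite strand within 1 kb upstream. Starts up to 300 bp downstream were also accepted in all gene lists, and none of the 10 was of this kind. The distances between the starts were 10 bp for Rps28 and Ndufa7, 53 bp for Rpl9 and Lias, 69 bp for Rpl15 and Nkiras1, 90 bp for Rps27a and Clhc1, 135 bp for Rps18 and Vps52, 158 bp for Fau and Mrpl49, 195 bp for Rpl7a and Med22, 263 bp for Rpl35a and Iqcg, 271 bp for Rpl4 and Zwilch, and 304 bp for Rpl12 and Lrsam1. Among the partners, Ndufa7 and Mrpl49 encode mitochondrial proteins, of complex I and of the mitochondrial ribosome. The median pileup of these 10 members was 43, from 17 at Rpl4 to 103 at Rpl15. Counting starts on either strand, and a readthrough gene annotated at Rps10, 16 members had another coding gene starting within 1 kb of their peak. Their medians were 49 fragments and a fold of 7.85, and the 63 open members without one had 63 and 9.80.

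Small nucleolar RNAs, which guide rRNA modification, are annotated within 29 members, 56 in all and up to 5 in Rpl4. These hosts had a median of 53 fragments, and the 50 open members without one had 68.5. The 5 lowest open members, Rpl4, Rpl17, Rpl39, Rpl13 and Rpl6, are all hosts, as is Rpl27a with 118 fragments, so that the groups overlap widely. Members also had short first exons, with a median of 95 bases beside 214 for all coding genes, and in 33 members the first exon was under 75 bases.

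Sequences known to bind promoter factors were searched on both strands of the 300 bases around the principal start. CCGGAAG, the ETS type, was found in 28 members (34.6%), beside 11.2% of all coding genes, 18.3% of those with a promoter peak and 20.4% of those with a CpG-rich promoter. The share was 37.2% in mitochondrial ribosomal protein genes and 30.8% in proteasome genes, and the intervals of all 3 families overlap. In all 28, the match nearest the summit lay inside the strongest peak, at a median of 23.5 bases before the start. With the match chosen the same way, 92.3% of open coding genes that hold one had it inside the peak. Its median position in them was -30.5 bases from the start. Members with a match had a median of 68.5 fragments and those without had 60.

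CTCGCGAG, the ZBTB33 type, was found in 9 members (11.1%), beside 1.17% of all coding genes, 1.87% of those with a promoter peak and 3.05% of those with a CpG-rich promoter. Among them were Rpl4, Rpl10a, Rpl17, Rpl26, Rpl27a, Rps6 and Rps28. The share was 3.85% in mitochondrial ribosomal protein genes and 5.13% in proteasome genes, with intervals that overlap that of the members. Examples are shown with the match in capitals, on the coding strand of mm10, to show how the flanks differ.
Rpl26 (chr11:68901529-68901560, plus strand): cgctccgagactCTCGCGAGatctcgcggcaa
Rpl10a (chr17:28328523-28328554, plus strand): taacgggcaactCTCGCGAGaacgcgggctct
With the match nearest the summit taken in each of the 9 members, 8 lay inside the strongest peak, beside 94.1% in open coding genes with a match. The 9 members had a median of 46 fragments, from 17 at Rpl4 to 119 at Rps6.

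Other sequences stood on either side of their share in open coding genes. AAGATGG, the YY1 type, was found in 13.6% of members, beside 6.44% of all coding genes and 7.68% of those with a peak. Its share was higher in mitochondrial ribosomal protein genes (17.9%) and proteasome genes (20.5%). GGGCGG, the GC box, was found in 53.1%, below the 63.5% of open coding genes. CCAAT was found in 29.6%, beside 39.0%, CACGTG, the E-box, in 12.3%, beside 9.92%, and GCGCATGC, the NRF1 type, in 4.94%, beside 5.40%. TATAAA on the coding strand from 40 to 20 bases before the start was found in 1 member, Rps2 (1.23%), beside 1.02%. A match is a description of letters and was not tested as a binding site.

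**Figure D4:**
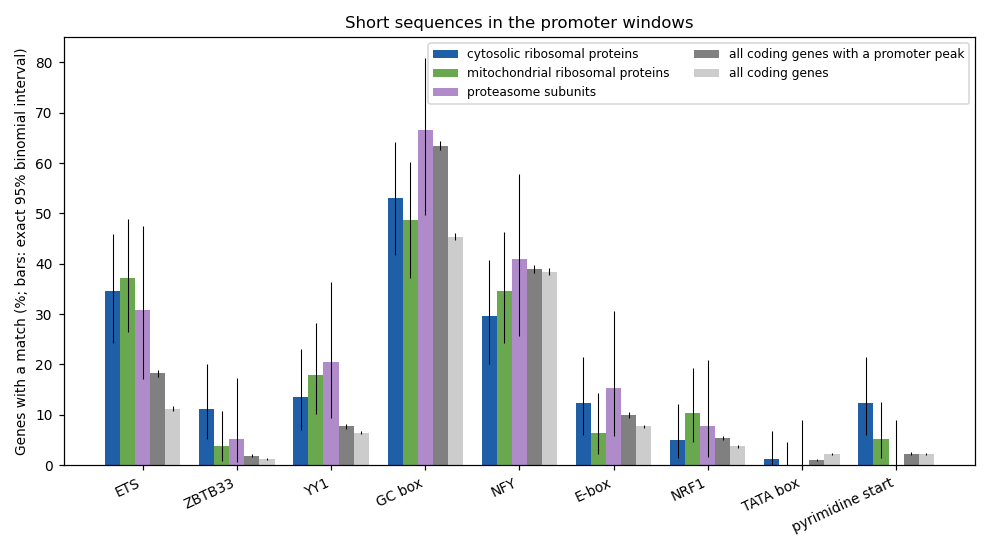
Share of genes (vertical axis, percent, with exact 95% binomial intervals) whose promoter window holds each short sequence, named by the factor type or element, and of those with a C followed by 4 pyrimidines at the start, for 5 gene sets. The ETS type stands at 34.6% in members and 18.3% in all open coding genes, the ZBTB33 type at 11.1% and 1.87%, and the GC box at 53.1% and 63.5%.

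Other housekeeping families gave similar values. Mitochondrial ribosomal protein genes were open in 78 of 78 cases, with a median of 62 fragments, a fold of 10.8 and a width of 712 bp. Proteasome subunit genes were open in 36 of 39, with 60 fragments, and the closed ones were Psma8, Psmb8 and Psmb11, which encode subunits of the testis, immune and thymus forms. Genes of other TOP mRNAs and translation factors were open in 22 of 22, with 81 fragments and a width of 956.5 bp, and those of ribosome biogenesis in 16 of 16, with 71 fragments. The interval of the members' share of open promoters overlaps those of all 4 lists. Head-to-head partners were found in 30.8% of mitochondrial ribosomal protein genes, beside 12.3% of the cytosolic ones.

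**Figure D5:**
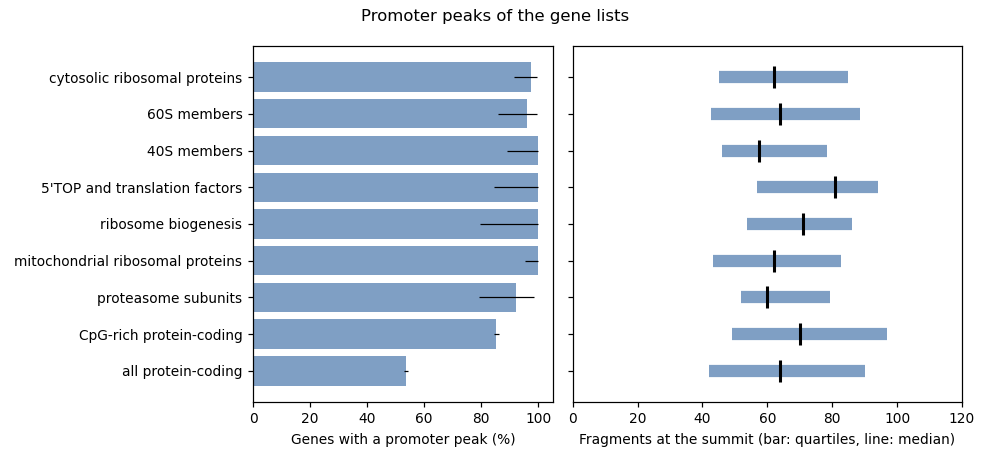
Share of genes with a promoter peak (left, percent, with exact 95% binomial intervals) and fragments at the summit of the strongest peak (right, quartiles as bars and median as line) for the members, their subunits, 4 comparison lists and 2 coding backgrounds. Members are open in 97.5% of cases against 53.7% of all coding genes, whereas their median of 62 fragments lies next to 64.

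Pseudogene copies of the family were nearly all closed. Of 294 annotated pseudogenes named as Rpl or Rps copies, 15 (5.10%) had a peak within 1 kb, and in 0 of them did a peak cover the annotated start. Of these 15, 2 were also within reach of the start of a coding gene. Their median was 21 fragments, beside 62 for the members. Only uniquely mapped reads were kept by the authors, so that reads within near-identical copies could be lost from both members and pseudogenes, and the size of this loss was not tested.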

How the data were processed

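ATAC-seq reads were aligned by the authors to mm10 with STAR (2.5.3a per the submitters' processing notes), duplicates were removed with Picard, and peaks were called with MACS2 (2.1.1.20160309) in paired-end mode on uniquely mapped fragments of 1 library. The deposited values are a fold enrichment (a ratio of pileup to local expected pileup), −log10 p and −log10 q per peak, and a score. The score was not analysed. Summit pileups were solved from fold and −log10 p by bisection, tested on simulated data. Library depth is unknown, and pileups, with 95% Poisson intervals, cover counting error only. Peaks were matched to transcript starts of GENCODE M21 (GRCm38, the same build) within 1000 bp, and the principal start was that of the coding transcript with the best APPRIS rank. A gene was represented by its highest peak. RefSeq promoter sequences (GRCm38.p6) were used for a second reading of the starts. Genes named were the closed members, the 10 highest and 10 lowest by pileup, the 5 widest and 5 narrowest, the extremes of fold, role groups, paralogs, and members with several peaks or a head-to-head partner. Other genes named with values (Rpl36, Rpl8, Rpl38 and Fau by fold, Rpl35, Rpl18 and Rpl10 by peak position, and members with sequence matches) were chosen after their values were seen. Some members are counted in the totals but not reported by name or sequence here. The members and lists were chosen with earlier results of these data known. Python 3.11.15, pandas 2.3.3 and SciPy 1.17.1 were used.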

Additional observations from a re-analysis of the deposited data

How the results depend on the processing

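The share of open members was 97.5% when a peak had to cover a start, lie within 500 bp, have a q of 1e-05 or below or be near the principal start, 95.1% with a fold of at least 5 and 97.7% with 6 further genes of ribosomal proteins or near copies. Median pileup stayed between 60 and 63, fold between 9.08 and 9.80 and width between 849 and 852 bp over the alternatives run. The last included members with no other coding gene starting within 1 kb of their peak, a set chosen after seeing the data. Values moved under 3 alternatives: the median summit was at -8 bp from the 5' end of the gene in place of -40 bp from the principal start, and the share of pyrimidine starts rose from 12.3% to 50.6% with a search within 10 bases and to 23.0% at any RefSeq start of the 61 members with an entry, the latter also chosen after seeing the data. The last alternative changed both the start and the genes counted. It was 8.64% at the 5' end of the gene. No paired analysis was possible because 1 library was analysed. With 1 library, differences between genes cannot be separated from those of this preparation.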

Other observations

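Rps2 and Rpl3l are neighbours on chromosome 17, with starts 7710 bp apart on the same strand, and had 48 fragments at Rps2 and no peak at Rpl3l. Genes of ribosomal proteins that the symbol rule leaves out were also looked at, with 98 fragments at Rps3a1 and 77 at Rack1, a scaffold protein of the small subunit.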
